A study of Mus musculus with 4 samples.

Results

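The transporters that carry bile acids, phospholipid, cholesterol and drug conjugates across the 2 faces of the hepatocyte, together with the water channel Aqp8, were examined in liver of mice lacking hepatic reductase. The set was defined by gene name, as 9 genes. The array annotation used here assigned 9 of the 12422 probe sets that are not manufacturer's controls to 6 of them, namely Aqp8, Abcb4, Abcc2, Abcc3, Abca1 and Slc10a1, out of 8251 named genes in all. Abcb11, Slco1a1 and Slco1a4 were not analysed here. Of the 9 probe sets, 8 were bright enough to be tested, and the remaining one, the dimmest of the 3 of Slc10a1, lay under the filter on dim signals.

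RNA from 2 samples of hepatic reductase null liver (replicates 7 and 8) and 2 samples of control liver (replicates 7 and 8) was hybridised to 4 Affymetrix MG_U74Av2 arrays, short-oligonucleotide arrays of mouse genes. The labels do not say which reductase is meant, and it is read here as the cytochrome P450 oxidoreductase, the electron donor of the microsomal P450 enzymes, which in the mouse line known by this name is removed from hepatocytes by a Cre recombinase under the albumin promoter, so that other liver cells keep it. The labels call the controls WT and give no strain, sex, age, allele or treatment for either genotype. They state that RNA of 3 animals of each genotype was pooled for each of 2 experiments, whereas the control titles speak of a mouse, which does not settle whether each array was given pooled RNA, and the p-values measure the spread between these samples, which may be technical. No probe set of the annotation names the reductase gene, and the genotypes were not checked against it.

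Bile is formed when hepatocytes take up bile acids from sinusoidal blood and pump them, with phospholipid and conjugates, across the canalicular membrane into the bile canaliculus, and water follows. At the sinusoidal face Slc10a1 (NTCP) takes up conjugated bile acids with sodium, while Abcc3 (MRP3) returns glucuronides and bile acids to the blood and Abca1 loads cholesterol and phospholipid onto apolipoprotein A-I. At the canalicular face Abcb4 (MDR2) moves phosphatidylcholine into bile, Abcc2 (MRP2) exports glucuronide and glutathione conjugates, and Aqp8 is a water channel of canalicular and vesicle membranes. Several of these genes are known targets of nuclear receptors, among them Abcb4 and Abcc2 of FXR, Abca1 of LXR, and Abcc2 and Abcc3 of the xenobiotic receptors CAR and PXR.

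Aqp8 was the only one of the 6 genes that passed the threshold, and it rose about 2-fold in null liver. Its neighbours in the canalicular membrane, Abcb4 and Abcc2, had overlapping signals in the 2 genotypes. Among the sinusoidal genes, Abcc3 was higher on both null arrays and missed the threshold narrowly, Slc10a1 was lower on both null arrays on each of its bright probe sets and missed it by more, and the 2 probe sets of Abca1 pointed in opposite directions. Here and below a signal is the deposited intensity of a probe set on a linear scale. A log2 change is the mean log2 signal of null minus control liver, and the threshold is a limma p under 0.05 after Benjamini-Hochberg adjustment over 7241 tested probe sets. By the brightest probe set of each gene, 1 of 6 genes was higher and 0 were lower at that threshold. Over all tested probe sets, 0.304% were called higher, 0.0829% lower and 0.387% in either direction. At an unadjusted limma p under 0.05 Aqp8 and Abcc3 were higher and Slc10a1 lower on their brightest probe sets, where 6.16% of all tested probe sets were higher, 6.46% lower and 12.6% either.

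**Figure D1:**
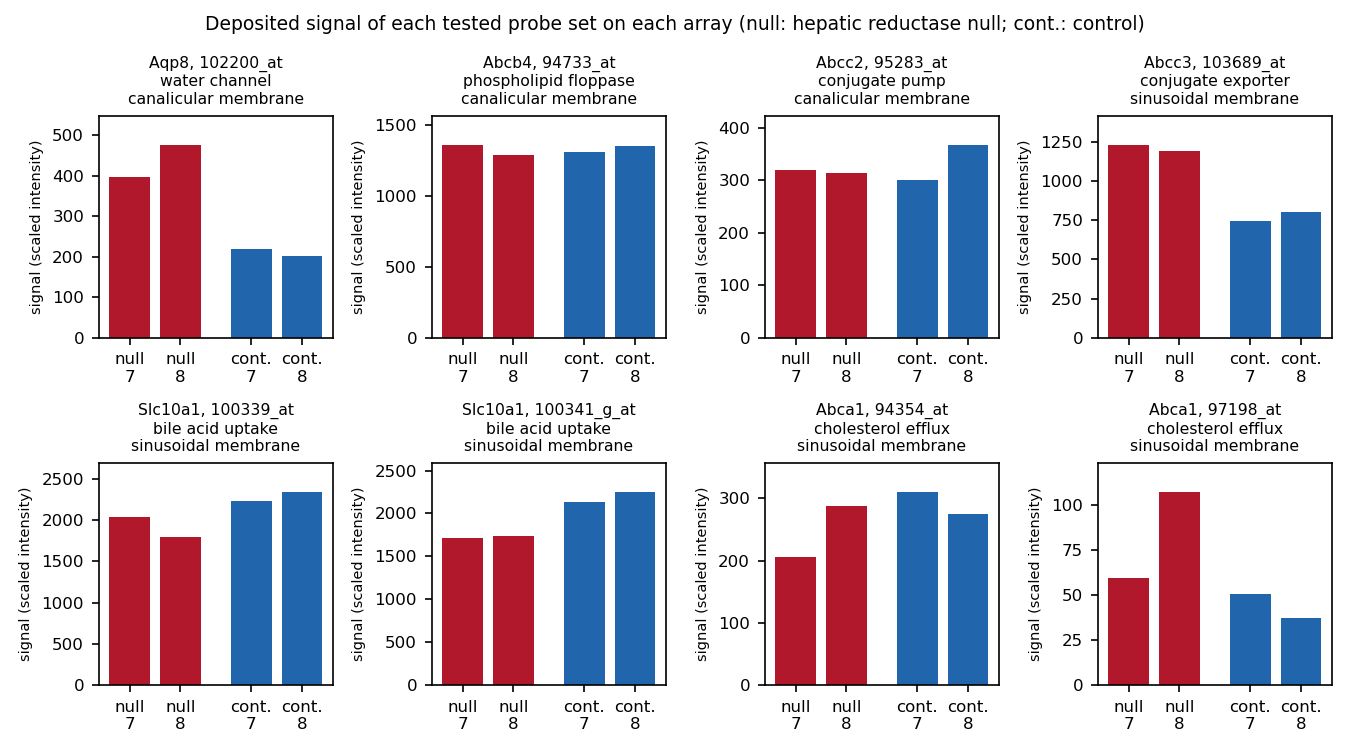
Bars give the deposited signal (linear intensity, axis from 0, a scale of its own in each panel) of the 8 tested probe sets on null replicates 7 and 8 (red) and control replicates 7 and 8 (blue). The null bars stand above the control bars for Aqp8 and Abcc3 and for 97198_at of Abca1, below them for both Slc10a1 probe sets, and overlap them for Abcb4, Abcc2 and 94354_at of Abca1.

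Aqp8 (probe set 102200_at) read 396.1 and 475.2 on the null arrays, against 217.8 and 202.3 on the control arrays. The lower null signal stood 81.9% above the higher control signal, and the null arrays differed from each other 1.20-fold. The log2 change was 1.05 ± 0.14 (SE), a 2.07-fold rise with a 95% interval of 1.64 to 2.61, and the adjusted p was 0.0452 by limma. That call was close to the threshold. It ended when any 1 of the 4 arrays was left out, with an adjusted p of 0.0671 without null replicate 7, 0.163 without null replicate 8, 0.194 without control replicate 7 and 0.214 without control replicate 8, while the log2 change stayed between 0.92 and 1.18. Each of these fits leaves 1 genotype with a lone array, which is assumed to vary like the pair of the other genotype, so that a call lost there is also a call with fewer arrays.

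In the rat, Aqp8 is known from pancreatic acinar cells as well as hepatocytes, and pancreatic acinar transcripts were raised on 1 of the arrays. The summed signal of 8 tested acinar markers was 3071 on null replicate 7 and 285.8 on null replicate 8, against 310.5 and 403.2 on the control arrays. The chymotrypsinogen gene Ctrb1 alone read 1307.3 on null replicate 7 and 78.7 on null replicate 8, against 58.0 and 71.8 on the control arrays. Without null replicate 7 the log2 change of Aqp8 was 1.18 ± 0.14 (SE). The part of acinar transcripts in the Aqp8 signals was not tested.

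**Figure D2:**
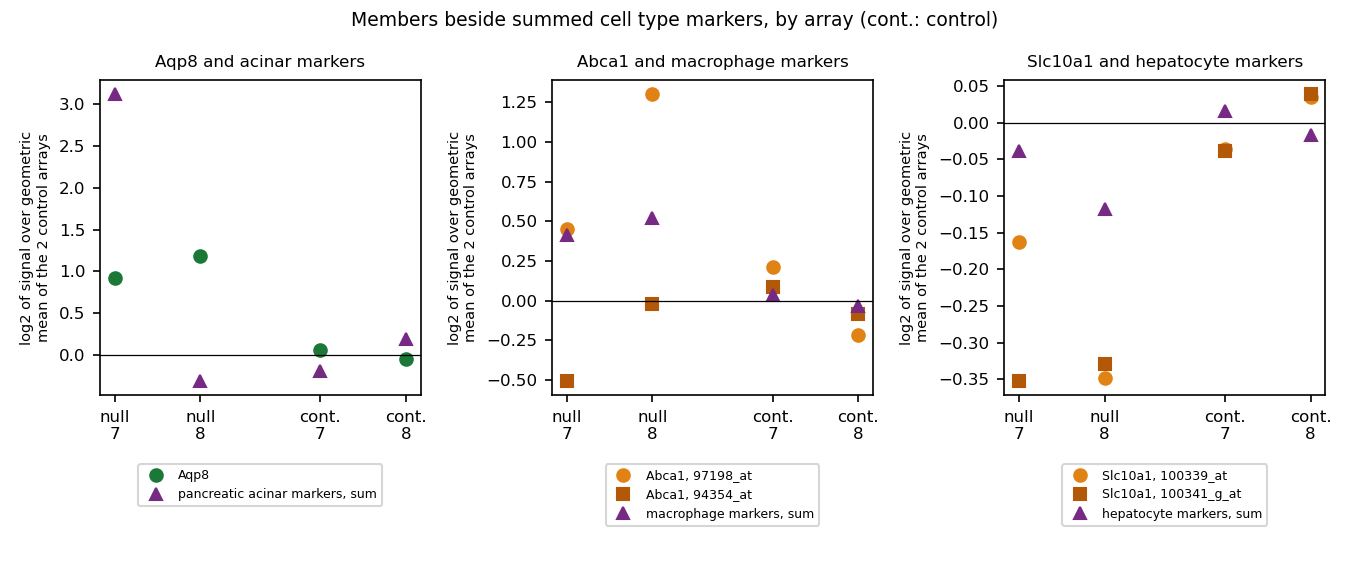
Points give, for each array, the log2 of a signal over the geometric mean of the 2 control arrays, for Aqp8 beside the summed acinar markers (left), Abca1 beside the summed macrophage markers (middle) and Slc10a1 beside the summed hepatocyte markers (right). Aqp8 and the macrophage sum are raised on both null arrays and the acinar sum on null replicate 7, and what part the markers have in the members' signals was not tested.

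The 2 canalicular pumps were close to level between the genotypes. Abcb4, which supplies the phospholipid of bile, read 1356 and 1282.8 in null liver, against 1306.5 and 1348.6 in control liver. Its log2 change was -0.01 ± 0.09 (SE, adjusted p = 0.982 by limma), with a 95% interval of -0.21 to 0.20, and its sign turned without null replicate 8 or control replicate 8 and under quantile normalization. Abcc2, the conjugate pump, read 319.9 and 314.1 in null liver, against 301.2 and 366.9 in control liver. The log2 change was -0.07 ± 0.14 (SE, adjusted p = 0.89 by limma), its interval ran from -0.40 to 0.26, and the sign turned without control replicate 8. For both pumps the interval of the change lay below the 1.64-fold that bounds the rise of Aqp8 from below. The intervals do not show that the pumps were unaltered, and differences within them were not detectable with 2 arrays per genotype.

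Abcc3 (103689_at), the conjugate exporter of the sinusoidal membrane, read 1231.4 and 1195.3 in null liver, against 746 and 805.8 in control liver. The arrays of a genotype lay close together, 1.03-fold apart in null and 1.08-fold apart in control liver, and the genotypes did not overlap. The ratio was 1.56-fold, with a 95% interval of 1.34 to 1.83. With an adjusted p of 0.0551 by limma it did not pass, and it did pass under quantile normalization (0.046) and with a stricter filter on dim probe sets (0.037). In the 13 alternative settings its log2 change stayed between 0.57 and 0.70.

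**Figure D3:**
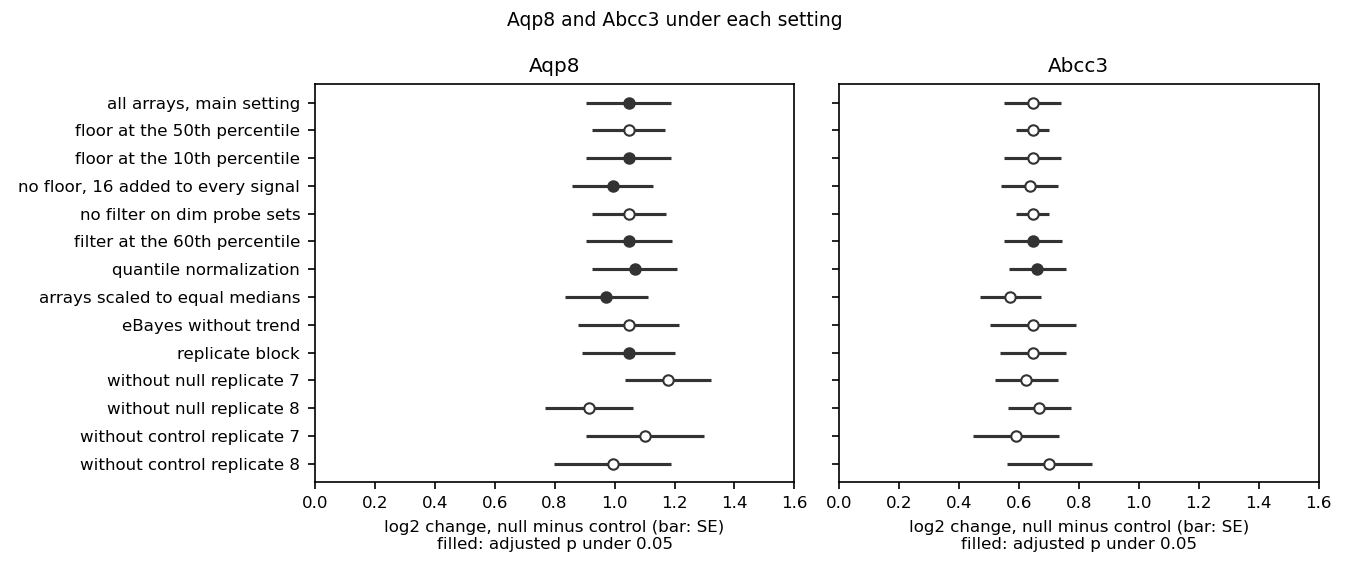
Each point is the log2 change (null minus control, bar: SE) of Aqp8 (left) and Abcc3 (right) under the main setting and 13 alternatives. Filled points passed an adjusted p of 0.05: Aqp8 keeps a change between 0.92 and 1.18 and loses the call in 7 alternatives, and Abcc3 gains it in 2.

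Abca1, the cholesterol exporter, gave readings that differed by probe set. On the brighter one (94354_at) the signals were 206 and 288.4 in null liver, against 309.8 and 275.1 in control liver, which overlapped. On the dimmer one (97198_at) they were 59.5 and 106.9 in null liver, against 50.4 and 37.4 in control liver. The log2 change was -0.26 ± 0.19 on the brighter and 0.88 ± 0.32 on the dimmer probe set (SE, adjusted p = 0.614 and 0.339 by limma). The size depended on single arrays: the brighter probe set was at -0.02 without null replicate 7 and -0.50 without null replicate 8, and the dimmer at 1.30 and 0.45. Each kept its sign in all 13 alternatives, so no direction is given for Abca1.

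Macrophages also express Abca1, and the summed signal of their markers was higher in null liver, though the markers differed widely in their change. The 10 tested macrophage markers summed to 2729 and 2946 on the null arrays, against 2100 and 2003 on the control arrays, and 9 of them had a positive log2 change, with a median of 0.40 against -0.01 over all tested genes. Mpeg1, a pore-forming protein of macrophages, rose by 1.38 ± 0.14 (log2, SE, adjusted p = 0.021 by limma). Lyz2 (1.10) and Cd14 (0.87) did not pass. Of the 10 markers 1 passed, against 0.304% of all tested probe sets called higher. At an unadjusted limma p under 0.05, 5 were higher and 0 lower, against 6.16% and 6.46% of all tested probe sets. Changes were smallest for Cd68 (0.27 ± 0.23), Adgre1 (0.14 ± 0.24), Csf1r (0.11 ± 0.15) and Clec4f (-0.01 ± 0.115, log2, SE). The dimmer probe set of Csf1r was at -0.16. On their brightest probe sets, none of the defining markers Cd68, Mpeg1 and Adgre1 was at the floor on any array. The dimmer probe set of Adgre1, which was not tested, lay under the floor on every array. The part of these cells in the Abca1 signals was not tested. In bulk liver, more or fewer cells of a type cannot be told apart from more or less RNA per cell.

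Slc10a1, the sodium-dependent bile acid uptake carrier, was the only uptake gene of the set with values. On its brightest probe set (100339_at) it read 2038.5 and 1791.7 in null liver, against 2226.2 and 2337.1 in control liver. On 100341_g_at it read 1712.9 and 1740.7 in null liver, against 2128.5 and 2246 in control liver. On both, each null array lay below each control array, by log2 changes of -0.26 ± 0.09 and -0.34 ± 0.08 (SE), that is to 0.838 and 0.790 times the control level. With 1 array left out the changes ran from -0.35 to -0.16 and from -0.38 to -0.30. Neither passed (adjusted p = 0.322 and 0.147 by limma), and probe sets of 1 gene on the same arrays are not independent measurements. The dim probe set 100340_at read 18.3 and 2.6 in null liver, against 12.3 and 14.1 in control liver, near background, and was not tested.

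Hepatocyte markers, read beside Slc10a1, gave no call: of 11 tested 0 passed in limma, with 0 higher and 4 lower at an unadjusted p under 0.05, against 6.46% of all tested probe sets lower. Those 4 were Tdo2, a tryptophan-degrading enzyme, at -0.38 ± 0.06 (adjusted p = 0.0759 by limma), the thyroxine carrier Ttr at -0.63 ± 0.14, prothrombin (F2) at -0.22 ± 0.07 and fetuin-A (Ahsg) at -0.20 ± 0.08 (log2, SE). Of the 11 markers, 5 had a positive and 6 a negative log2 change, with a median of -0.04 against -0.01 over all tested genes. They summed to 50200 and 47510 in null liver, against 52110 and 50970 in control liver. Albumin (Alb) read 9809.2 and 9108.7 in null liver, against 8991 and 9729 in control liver, well above the floor on every array, as the labelled tissue would give. The part of hepatocyte content in the Slc10a1 signals was not tested. The bile duct markers Krt19, Krt7 and Epcam read at most 24.7, 18.3 and 2.9 on any array and were under the filter. The defining transcripts of duct cells were thus near background in both genotypes.

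Among the 6 genes with values no split of the changes by the side of the cell was seen, and a split was not tested. Abcb11, Slco1a1 and Slco1a4 were without values, so that both sides were incomplete. The 3 canalicular genes had a median log2 change of -0.01 and ranged from -0.07 to 1.05, while the 3 sinusoidal genes had a median of -0.26 and ranged from -0.26 to 0.65, and the ranges overlapped. By the brightest probe set, each side held 1 gene whose null arrays both lay above both control arrays, Aqp8 at the canaliculus and Abcc3 at the sinusoid. The dimmer probe set of Abca1, a sinusoidal gene, also had both null arrays above both control arrays. The sinusoidal median turned to 0.31 when the probe sets of a gene were averaged, because Abca1 then counted as higher. By the brightest probe sets of the 6 genes, 2 had both null arrays above both control arrays, 1 had both below, and 3 overlapped. Thus 3 of 6 genes, and 5 of the 8 tested member probe sets, did not overlap. Over all tested probe sets, 20.4% lay above, 23.4% lay below and 43.8% were without overlap in either direction. The median of the 6 genes was -0.04.

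**Figure D4:**
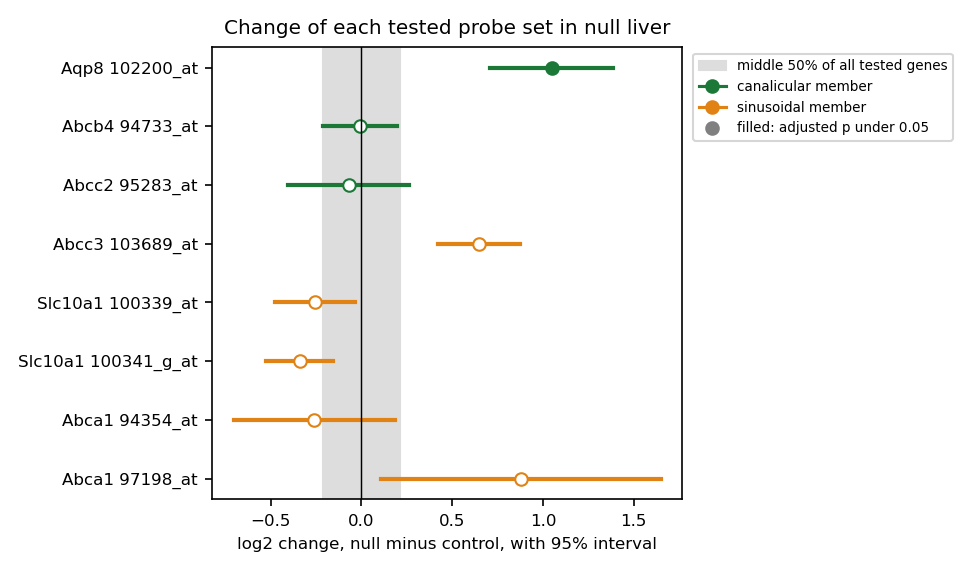
Points give the log2 change of each tested probe set (null minus control) and lines its 95% interval, for canalicular (green) and sinusoidal (orange) members, with the middle 50% of 5510 tested genes shaded. Aqp8 is the only filled point (adjusted p under 0.05), the interval of Abcc3 lies wholly above 0, and those of Abcb4 and Abcc2 span 0.

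For the member that passed and for 1 canalicular and 1 sinusoidal gene that did not, the 250 bases before the RefSeq transcription start are shown so that the named nuclear receptor half-site can be seen. Capitals mark AGGTCA, searched on both strands.
Aqp8 (GRCm38.p6, chr7:123462044-123462293, plus strand): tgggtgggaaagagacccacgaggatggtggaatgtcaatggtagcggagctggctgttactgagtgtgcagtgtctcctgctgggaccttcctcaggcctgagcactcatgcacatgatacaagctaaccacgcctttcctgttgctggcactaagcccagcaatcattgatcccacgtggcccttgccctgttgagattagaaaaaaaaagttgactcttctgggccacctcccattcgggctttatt
Abcc2 (GRCm38.p6, chr19:43782058-43782307, plus strand): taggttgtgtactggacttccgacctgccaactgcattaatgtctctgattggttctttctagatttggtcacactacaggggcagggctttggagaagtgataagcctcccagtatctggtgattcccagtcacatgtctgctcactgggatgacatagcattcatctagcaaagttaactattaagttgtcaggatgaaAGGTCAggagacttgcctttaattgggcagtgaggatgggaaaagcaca
Slc10a1 (GRCm38.p6, chr12:80968080-80968329, minus strand): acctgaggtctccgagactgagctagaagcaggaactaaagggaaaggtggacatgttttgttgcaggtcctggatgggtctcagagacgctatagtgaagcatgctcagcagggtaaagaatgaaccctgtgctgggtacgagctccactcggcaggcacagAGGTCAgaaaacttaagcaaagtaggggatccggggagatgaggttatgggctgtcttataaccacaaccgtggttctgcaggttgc
The half-site starts 49 bases before the start of Abcc2 and 87 bases before this start of Slc10a1, and these letters are not in the window of Aqp8 nor in that of the other RefSeq start of Slc10a1 (chr12:80968706-80968955, not shown). Of 32851 such windows in the RefSeq table, 14.0% hold it on either strand, so that it is common. Abcc3 had no window in the table and was not searched. Of the 8 named genes with a window in the table, 4 held it in at least 1 window, namely Abcb11, Abcc2, Slc10a1 and Slco1a1. That count is of genes, whereas the 14.0% is of windows. Abcb11 and Slco1a1 were without signal values here. Abcb4 and Abca1, which did not pass either, lacked it in their windows, as Aqp8 did. A relation of the half-site to the changes was not tested. The inverted repeat of the half-site with 1 base between (IR-1, the FXR element) was in 0 of the 8 genes' windows and 0.00609% of all, and the direct repeat with 4 bases between (DR-4, the LXR element) in 0 of the 8 and 0.0152% of all. Other letters searched were AGTTCA (3 of the 8 genes, 11.8% of all windows), TATAAA (3 of the 8, 12.4%) and GTTAAT (0 of the 8, 6.43%).

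The signals nearest in pattern to the 2 higher genes were sought among 5509 other tested genes, as the root mean square difference of log2 signals centred on their mean over the 4 arrays. The nearest to Aqp8 were Acp2 (0.045), Tmed3 (0.047), Arfgap2 (0.058) and Mab21l2 (0.063), and 8 genes lay within 0.1. The nearest to Abcc3 were Srprb (0.027), H2-Ab1 (0.029), Anxa1 (0.033) and Tbl1xr1 (0.035), and 64 genes lay within 0.1. None of these 8 named neighbours passed the threshold by limma, and the likeness rests on 4 arrays.

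Other hepatic transporters gave no call. Of 6 tested ABC transporters and 6 tested solute carriers outside the set, 0 passed in limma in either direction, with 0 higher and 1 lower at an unadjusted p under 0.05, which for 12 genes is close to the 6.46% lower among all tested probe sets. The median log2 change was -0.21 for the ABC transporters and -0.02 for the solute carriers, against -0.01 over all tested genes. Abcd3, a peroxisomal fatty acid transporter, was at -0.20 ± 0.09, Abcg2, an efflux pump of xenobiotics, at -0.29 ± 0.16, Abcc6 at -0.33 ± 0.20 and Abcg1, a cholesterol exporter, at 0.35 ± 0.18 (log2, SE). Slc27a5, the bile acyl-CoA synthetase that prepares bile acids for conjugation, read 1455.6 and 1053.7 in null liver, against 1903.7 and 1771.1 in control liver (-0.57 ± 0.15, adjusted p = 0.205 by limma). Slc22a5, the carnitine carrier, was at 0.57 ± 0.28 and Slc2a2, the hepatic glucose carrier, at -0.14 ± 0.10. The drug pumps Abcb1a and Abcc1 were under the filter.

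The other tested water channels gave no call. Aqp9, the glycerol channel of the sinusoidal membrane, read 865.2 and 942 in null liver, against 817.5 and 759.4 in control liver (0.20 ± 0.10, adjusted p = 0.488 by limma). Aqp1 was at 0.10 ± 0.12. Aqp4, a water channel best known from astrocytes, read 20.8 and 10.3 in null liver, against 73.6 and 62.1 in control liver, a log2 change of -2.21 ± 0.41 that did not pass (adjusted p = 0.0902 by limma), with null signals near the floor of 7.1. Of the 3 tested, 0 passed in limma and 1, Aqp4, was lower at an unadjusted p under 0.05 (6.46% of all tested probe sets). Whether Aqp8 differed from them was not tested.

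Of 18 tested receptors and transcription factors of bile acid transport 0 passed in limma, 15 had a negative log2 change, and 4 were lower and 0 higher at an unadjusted p under 0.05, against 6.46% lower and 6.16% higher among all tested probe sets. Their median was -0.22, against -0.01 over all tested genes. The bile acid receptor FXR (Nr1h4) read 344.8 and 303.1 in null liver, against 386.5 and 330.8 in control liver, and its arrays overlapped. Rxra, the shared partner of these receptors, was at 0.37 ± 0.20, with its other probe set at 0.19, and Rxrb at -0.52 ± 0.15. LXR-alpha (Nr1h3) was at -0.05 ± 0.14, PXR (Nr1i2) at -0.23 ± 0.26, CAR (Nr1i3) at -0.22 ± 0.11 with its other probe sets at 0.08 and -0.18, and Hnf4a at 0.16 ± 0.40 (log2, SE). Cebpa, a factor of hepatocyte identity, was at -0.32 ± 0.07 (adjusted p = 0.141 by limma). Nr5a2, an activator of bile acid genes, was at -0.61 ± 0.19, with its dimmer probe set at -0.19 ± 0.25. Nr0b2, a repressor induced by FXR, had a log2 change of -1.91 ± 0.76 with null arrays far apart, at 64.4 and 10.

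LXR targets other than Abca1 went both ways. Of 9 tested, 0 passed in limma by their brightest probe set, 6 were positive and 3 negative, with 1 higher and 1 lower at an unadjusted p under 0.05, against 6.16% higher and 6.46% lower among all tested probe sets. Srebf1 was at -0.94 ± 0.14 (adjusted p = 0.0551 by limma), whereas Scd2 was at 1.43 ± 0.28, and its dimmer probe set passed (1.95, adjusted p = 0.0333 by limma). Apoe was at 0.03 ± 0.05, Pltp at 0.31 ± 0.27 and Lpl at 0.39 ± 0.23 (log2, SE). The dimmer probe set of Lpl gave a larger change, 1.30 ± 0.35 (log2, SE). This change missed the threshold (adjusted p = 0.21 by limma).

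Of 15 tested proteins that anchor or traffic membrane transporters 0 passed in limma, with 7 positive and 8 negative changes and 1 higher and 2 lower at an unadjusted p under 0.05, against 6.16% and 6.46% of all tested probe sets. Pdzk1, a scaffold of sinusoidal carriers, read 153.5 and 155.2 in null liver, against 156.4 and 154.6 in control liver. Ezr was at 0.42 ± 0.38, the scaffold Slc9a3r1 at -0.36 ± 0.14 and the canalicular adhesion protein Ceacam1 at -0.34 ± 0.13 (log2, SE). Cldn2, a pore-forming tight junction protein, read 45.2 and 127.7 in null liver, against 35.6 and 13.8 in control liver, with arrays of a genotype far apart (1.78 ± 0.60, adjusted p = 0.297 by limma). Of 9 tested carriers and conjugating enzymes within the cell 0 passed, with 1 higher and 3 lower at an unadjusted p under 0.05, against the same 6.16% and 6.46%. Baat, which conjugates bile acids to amino acids, was at -0.09 ± 0.12, Scp2 at -0.28 ± 0.08 and the phosphatidylcholine transfer protein Pctp at 0.92 ± 0.29 (log2, SE). The other probe set of Scp2 was at -0.04.

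**Figure D5:**
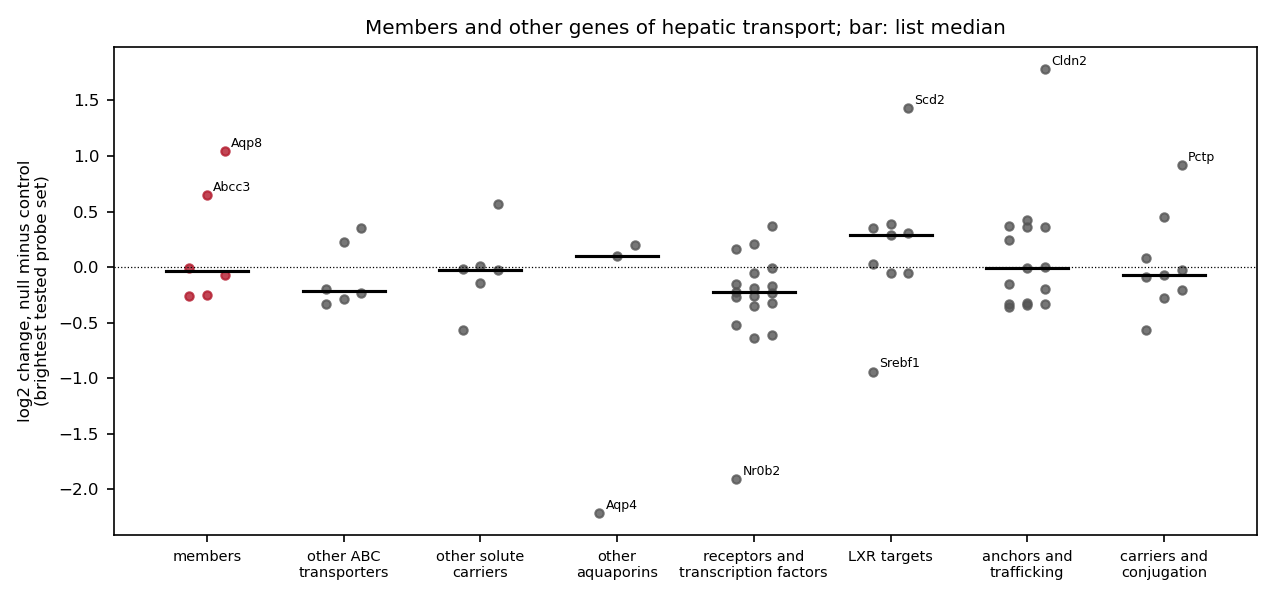
Each point is the log2 change (null minus control) of 1 gene by its brightest tested probe set, for the 6 members (red) and 7 lists of other genes of hepatic transport (grey), with a bar at each median. Aqp8 and Abcc3 stand above the other members, and the list medians lie between -0.22 and 0.29.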

How the data were processed

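Liver RNA of 2 hepatic reductase null and 2 control samples was measured on MG_U74Av2 arrays. The deposited intensity of a probe set is on a linear scale. The authors derived it in GCOS from matched and mismatched probes and scaled each array to its total fluorescence, per the labels, with the software version and scaling target not given in the sources used here. Detection calls were not used.

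The 66 control probe sets of 12488 were left out. Values under 7.1, the 25th percentile of the pooled signals (24.7% to 25.6% of each array), were raised to it before log2, and no further normalization was applied. The 7241 probe sets whose mean exceeded log2 of 16.8, the 40th percentile, were tested. The comparison used limma 3.58.1 under R 4.3.3, with lmFit on genotype alone and eBayes with a trend on intensity, two-sided, Benjamini-Hochberg adjustment and a threshold of 0.05. The spread shared across probe sets weighed 4.78 degrees of freedom and the arrays 2. The number of arrays limits the precision. Exact permutation of 2 against 2 cannot give a p below 0.333 and was not used. The script was tested on simulated data.

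Gene names are those of the platform table, updated by gene identifier to GRCm38.p6. Of 12422 probe sets 10833 had 1 symbol, 396 had several and 1193 are unnamed here. The brightest tested probe set stood for a gene (5510 genes). Promoter windows are from RefSeq.

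The members and lists were chosen with earlier results of these data known. Named were all members, list genes past the threshold, up to 3 of smallest p per list, and genes fixed by name. Summed signals of 6 endothelial markers were 1029 and 959 in null liver, against 843 and 874.2 in control liver, and those of 7 stellate cell markers 1391 and 1642 in null liver, against 1089 and 1125 in control liver. Alternatives varied the floor, filter, scaling, trend, replicate block, arrays included and handling of several probe sets. Samples of the same replicate number did not deviate together (correlation of deviations from group means -0.030 over tested probe sets), so the numbers were not taken as pairs.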

Additional observations from a re-analysis of the deposited data

How the results depend on the processing

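Aqp8 and Abcc3 stayed higher, and both bright Slc10a1 probe sets lower, in all 13 alternatives run on them, while 0 members were called lower in any. Aqp8 stayed past the threshold in 6 of 13, with an adjusted p between 0.0277 and 0.414 in limma. The number of members called higher was 0 with a floor at the 50th percentile, without a filter and without the trend, where 0 probe sets were called higher, with 1, 0 and 0 lower. It was 2, Aqp8 and Abcc3, with the filter at the 60th percentile (29 probe sets higher and 15 lower) and with quantile normalization (30 higher and 12 lower). Leaving out 1 array gave 0 members, 12 to 16 probe sets higher and 0 to 4 lower. With the replicate block 37 probe sets were higher and 15 lower, and 1 member was higher. The sinusoidal median ran from -0.22 to -0.018 and the canalicular median from -0.049 to 0.074 with 1 array left out, and the sinusoidal median was 0.31 with the probe sets of a gene averaged. Abcb4 turned to 0.0058 with quantile normalization, 0.031 without null replicate 8 and 0.014 without control replicate 8 (from -0.049 to 0.031 with 1 array left out), and Abcc2 turned to 0.074 without control replicate 8 (from -0.21 to 0.074). The causes were not tested. With 2 arrays per genotype, signals near the floor carry no order.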
